A study of Mus musculus with 2 samples.

Results

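The Gngt2 Clec4a3 monocytes of mouse bone marrow are 75 cell barcodes of 6439 that passed the mitochondrial limit in 1 single-cell library (1.16%). They were chosen by their own UMI counts (UMIs are molecule tags, so that each counts 1 captured RNA molecule). A barcode was taken when the UMIs of Gngt2, Clec4a3, Pydc4 and Ifi204 summed to 3 or more and those of Fn1 and F13a1 to under 3. It also had to hold under 3 UMIs of the plasmacytoid dendritic cell genes Siglech, Ccr9 and Cox6a2, under 15% of its UMIs in S100a8 and S100a9, and under 10% in mitochondrial genes. Of the marrow barcodes under the mitochondrial limit, 100 reached the sum of 3, 78 of them had the low Fn1 and F13a1 sum, 77 also passed the dendritic cell limit and 75 the S100 limit. They were set against 622 Fn1 F13a1 monocytes, which had 3 or more UMIs of Fn1 and F13a1 and met the same other limits, and against all 6364 other marrow barcodes. A further 21 barcodes reached 3 UMIs of both sums and were kept apart.

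The library was made from CD45+ CD3- Ly6G- bone marrow cells of 3 naïve C57BL/6 mice, sorted and pooled, with 10000 cells loaded on a 10x Genomics 3′ v2 chip. The second library of the series, from CD45+ cells of naïve Car1-GFP reporter mice on the same background, held 1 barcode of 2400 that met the same rule, with 21107 UMIs, and is not described further. The libraries shared 14 barcode sequences. All groups compared here come from 1 library of pooled mice, so there is no replicate, no spread between animals and no test; intervals are exact 95% intervals of counting error alone, and cells are not replicates.

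Monocytes are blood phagocytes that form in the marrow from granulocyte-monocyte progenitors under the growth factor receptor Csf1r. In mice, classical monocytes carry Ly6C and the chemokine receptor Ccr2 and enter inflamed tissue, while nonclassical monocytes, low in Ly6C, patrol the vessel wall, depend on the nuclear receptor Nr4a1 and carry the fractalkine receptor Cx3cr1. Classical monocytes can convert into nonclassical ones, in marrow and in blood.

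The rule genes differ in kind. Gngt2 (chr11:95837216-95845734, plus strand, mm10) encodes a gamma subunit of heterotrimeric G proteins, known from cone photoreceptors. Clec4a3 (chr6:122952515-122969875, plus strand) encodes a C-type lectin receptor of myeloid cells. Pydc4 (chr1:173566283-173599274, minus strand) and Ifi204 (chr1:173747293-173766943, minus strand) lie in the interferon-inducible PYHIN gene cluster. Sirpb1c (chr3:15795145-15848528, minus strand), a signal-regulatory receptor gene with the near-identical relatives Sirpb1a and Sirpb1b, was given as a marker of these cells but took no part in the rule. All 5 are protein-coding. Reads of such close relatives, and of the Ifit3, Phf11, H2-Q and Hist1h2 families and the PYHIN genes, can be split or lost in counting, so their single values are uncertain.

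As the values that chose the cells, Gngt2 had 114 UMIs in 55 of the 75 barcodes, Clec4a3 had 81 in 54, Ifi204 had 47 in 30 and Pydc4 had 30 in 18. The rule sum was 3 in 48 barcodes, 4 in 12, 5 in 12, 6 in 2 and 8 in 1. In 44 barcodes 2 of the genes were detected, in 19 barcodes 3, in 12 barcodes 1, and in 0 barcodes all 4. The commonest combination was Gngt2 with Clec4a3 and neither of the others, in 28 barcodes. Pydc4 or Ifi204 was seen in 39 barcodes, and 6 of the 75 had neither Gngt2 nor Clec4a3. Thus most barcodes were taken on 3 molecules, and the 4 genes were rarely seen together at this depth.

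The rule genes were also seen in barcodes of other cell classes. The 75 were chosen on these genes, and the Fn1 F13a1 monocytes were held under 3 UMIs of them. Lower shares outside the 75 therefore follow from the rule, and the values are a description only. Gngt2 was seen in 73.3% of the 75 barcodes (median 777 UMIs), against 10.6% of Fn1 F13a1 monocytes (median 1276.5), 2.87% of barcodes with 15% or more S100 UMIs (median 1076.5), 5.41% of erythroid barcodes, taken at 3 or more UMIs of Car1, Car2, Klf1, Gata1 and Epor (median 2866), and 11.9% of B lineage barcodes, taken at 3 or more UMIs of Cd79a, Cd79b, Ebf1 and Vpreb3 (median 1129). Gngt2 was also seen in 8.30% of barcodes with 3 or more UMIs of Siglech, Ccr9 and Cox6a2 (median 780). The share in Fn1 F13a1 monocytes, which the rule limits, was thus no higher than in B lineage barcodes. Pydc4 was likewise no higher there: it was seen in 24.0% of the 75 barcodes and 3.22% of Fn1 F13a1 monocytes. Its shares were 0.386% of erythroid and 4.76% of B lineage barcodes, the last being 4 of 84. Clec4a3 and Ifi204 did not follow this. Clec4a3 was seen in 72.0% of the 75 barcodes, against 10.3% of Fn1 F13a1 monocytes, 3.86% of erythroid and 1.19% of B lineage barcodes. Ifi204 was seen in 40.0%, against 7.88%, 1.16% and 1.19%. The 21 barcodes kept apart are missing from the Fn1 F13a1 shares, and the part of free RNA in these UMIs was not tested. S100a8 was seen in all 75 barcodes and in all 259 erythroid barcodes, at 12334 and 9034 CPM (UMIs per 1000000 UMIs summed over a group), so a UMI of it does not mark a cell type here.

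The chosen barcodes were shallow. They held 67534 UMIs in all, 593 to 2461 per barcode with a median of 777 and a median of 489 genes, against 931486 UMIs, medians of 1276.5 UMIs and 719.5 genes in the Fn1 F13a1 monocytes, and a median of 1056 UMIs in the other barcodes. Only 14 (18.7%) reached 1000 UMIs, against 413 (66.4%) of the Fn1 F13a1 monocytes. A count of 0 in the 75 barcodes allows up to 44.4 CPM, with a floor of 3 counts, against 3.22 CPM in the Fn1 F13a1 monocytes. Because depth moves with the groups, many results are also given for barcodes under 1000 UMIs alone, 61 Gngt2 Clec4a3 monocytes (median 743) and 209 Fn1 F13a1 monocytes (median 825), a comparison chosen after the data were seen.

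The label was checked against genes outside the rule. Lyz2, the lysozyme of monocytes and neutrophils, was seen in 74 of the 75 barcodes, at 17547 CPM, against 10644 CPM in Fn1 F13a1 monocytes and 6286 CPM in the other barcodes. It was also seen in 90.5% of the other barcodes and 90.3% of erythroid ones, so its detection alone does not mark a cell type here. The 10 monocyte markers together (among them Csf1r, Lyz2, Cx3cr1, Ccr2, Ctss and Psap) had 3 or more UMIs in all 75 barcodes (median 21). The same was true of 619 of the 622 Fn1 F13a1 monocytes (median 23) and 5341 of the 6364 other barcodes (median 9). This count alone therefore does not mark the 75. The markers made up 25350 CPM, against 15311 and 8386 CPM. Of their 1712 UMIs in the 75 barcodes, 1185 were Lyz2, which was level under 1000 UMIs (log2 0.07, -0.04 to 0.18). No barcode held a UMI of the 5 T cell markers measured. In this CD3- sort they stood at 21.2 CPM in the other barcodes, below the 44.4 CPM that a 0 allows, so this 0 says little. Of 9 markers of NK and innate lymphoid cells 8 had a UMI, Prf1 being at 0; they made up 26 UMIs in 9 barcodes, 12 of them in 1 barcode, or 385 CPM against 179 CPM in Fn1 F13a1 monocytes. Scrublet called 2 of the 75 as doublets (2.67%), against 171 of all 6439 (2.66%). For the group as a whole the monocyte counts do not go against its name; the part of lymphoid RNA in single barcodes was not tested. Sirpb1c, the marker outside the rule, was thin, with 13 UMIs in 11 barcodes.

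When the whole marrow library was clustered without the genes of the rule, 59 of the 75 barcodes (78.7%) fell into 1 cluster of 670 barcodes, led by Wfdc17, Sirpb1c, Hpgd, Ms4a4c, Clec4a1 and Lrp1. The same cluster took 146 of the 622 Fn1 F13a1 monocytes (23.5%), while 378 of those (60.8%) fell into a cluster led by Klf4, Crip1 and C1galt1c1. A further 7 of the 75 fell into a cluster of 148 barcodes led by H2-Eb1, H2-Aa, H2-Ab1, Cd74 and Cd209a, and 2 into one led by the lymphoid genes Ccl5, Gzma and Klre1. Of the rest, 3 fell into the Klf4 cluster and 2 into one led by Ly6d, D13Ertd608e and Tcf4. The last ones fell 1 each into clusters led by Mmp8 and Mmp9 and by C1qc and Vcam1. At a finer resolution 45 stayed in a cluster with the Wfdc17 and Sirpb1c pattern, 11 joined a cluster of 70 barcodes led by Ifit1, Isg15 and Oasl2, and 10 joined one of 175 barcodes led by the MHC class II genes. The 75 barcodes are thus a small share of the cluster that holds most of them (8.81% of its barcodes), picked for detection of a few molecules.

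Csf1r and Cx3cr1 were higher in the chosen barcodes over all depths, and Ccr2 is given with the classical genes. Csf1r, the receptor for the monocyte growth factors, had 33 UMIs in 27 of the 75 barcodes, or 489 CPM (interval 336 to 686), against 137 UMIs and 147 CPM (123 to 174) in Fn1 F13a1 monocytes and 61.5 CPM in the others. Its log2 ratio over Fn1 F13a1 monocytes was 1.73 (1.14 to 2.29). Cx3cr1 stood at 459 CPM (312 to 652) against 164 CPM (139 to 192), a log2 ratio of 1.48 (0.88 to 2.05). Under 1000 UMIs Csf1r kept a log2 ratio of 1.07 (0.30 to 1.81), and Cx3cr1 had 0.53 (-0.28 to 1.28), an interval that includes equal levels. With each barcode thinned to 500 UMIs, Csf1r was seen in 25.3% of the chosen barcodes against 8.04% (36.0% and 18.5% before thinning), and Cx3cr1 in 13.3% against 9.97% (22.7% and 20.4%).

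Genes of nonclassical monocytes were higher as a group. Of 26 listed genes 9 had the 20 UMIs over both sides needed to be measured against Fn1 F13a1 monocytes; 7 of the 9 were at least 2-fold higher and 0 were 2-fold lower, with a median log2 ratio of 1.49. Over all 5135 measured genes, 11.2% were higher by 2-fold or more and 13.9% lower, with a median of -0.05; many of these sit on a handful of UMIs, and among the 699 genes at a mean of 200 CPM or more the shares were 7.58% and 6.01%. Scaling by TMM factors in place of total UMIs shifts every log2 ratio by -0.26 and turns the counts over all genes, 573 higher and 713 lower, into 339 and 1120.

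Adgre4, an adhesion receptor of the EGF-TM7 family, had 14 UMIs in 13 barcodes and 207 CPM (113 to 348), against 19.3 CPM (11.5 to 30.5) in Fn1 F13a1 monocytes. Its log2 ratio was 3.42 (2.30 to 4.51), and 2.76 (1.20 to 4.48) under 1000 UMIs. Ear2, an eosinophil-associated ribonuclease also known from nonclassical monocytes, had 311 CPM (192 to 475) against 44.0 CPM (31.6 to 59.7), with log2 ratios of 2.82 overall and 2.13 (0.86 to 3.43) under 1000 UMIs. Hpgd, which breaks down prostaglandins and is not on the list, had 400 CPM (263 to 582) against 32.2 CPM (21.7 to 46.0), with 3.63 and 1.80 (0.68 to 2.91). All 3 log2 ratios stayed at 2-fold or more under 1000 UMIs, as did those of 312 of all 573 higher genes (54.5%). The 3 genes were named by the size of their ratios.

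Ace, the angiotensin-converting enzyme that marks nonclassical monocytes in mice, had 11 UMIs in 7 of the 75 barcodes and 163 CPM (81.3 to 291), against 3 UMIs and 3.22 CPM (0.664 to 9.41) in 622 Fn1 F13a1 monocytes and 3.61 CPM in the other barcodes. Its log2 ratio of 5.66 (3.74 to 8.14) rests on those 11 and 3 molecules. Under 1000 UMIs it was 4.21 (1.05 to 9.77), from 5 and 1. The nuclear receptor gene Nr4a1 had 5 UMIs against 7, or 74.0 CPM against 7.51 CPM, and the Fc receptor gene Fcgr4 had 6 against 5, or 88.8 CPM against 5.37 CPM, with log2 ratios of 3.30 (1.30 to 5.17) and 4.05 (2.07 to 6.10). Treml4, a receptor of the TREM family found on nonclassical monocytes, had 3 UMIs against 0, and no fold was formed. Cd36, a scavenger receptor, had 2 UMIs against 2, too few for a level. Each of these genes lay below the 20 UMIs needed for the list count.

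The rest of the list was less even. Pou2f2, a POU transcription factor, had 326 CPM against 89.1 CPM (log2 1.87, 1.12 to 2.56), but 0.63 (-0.42 to 1.61) under 1000 UMIs. Itgal, the alpha chain of the integrin LFA-1, had 474 CPM against 169 CPM (1.49), and 0.85 (-0.02 to 1.68) at shallow depth. Spn, the sialomucin CD43 used to gate nonclassical monocytes, was not higher: 59.2 CPM (16.1 to 152) against 106 CPM (86.4 to 129). Outside the list, Sirpb1c had 192.5 CPM against 48.3 CPM, a log2 ratio of 1.99 (0.98 to 2.91), yet 197 CPM against 189 CPM under 1000 UMIs, a log2 ratio of 0.06 (-1.19 to 1.16). Of the 7 nonclassical genes at least 2-fold higher, all 7 kept their direction under 1000 UMIs and 2, Adgre4 and Ear2, stayed at 2-fold. Of all 573 higher genes, 524 kept their direction there and 312 (54.5%) stayed at 2-fold, a larger share than in this list.

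**Figure D1:**
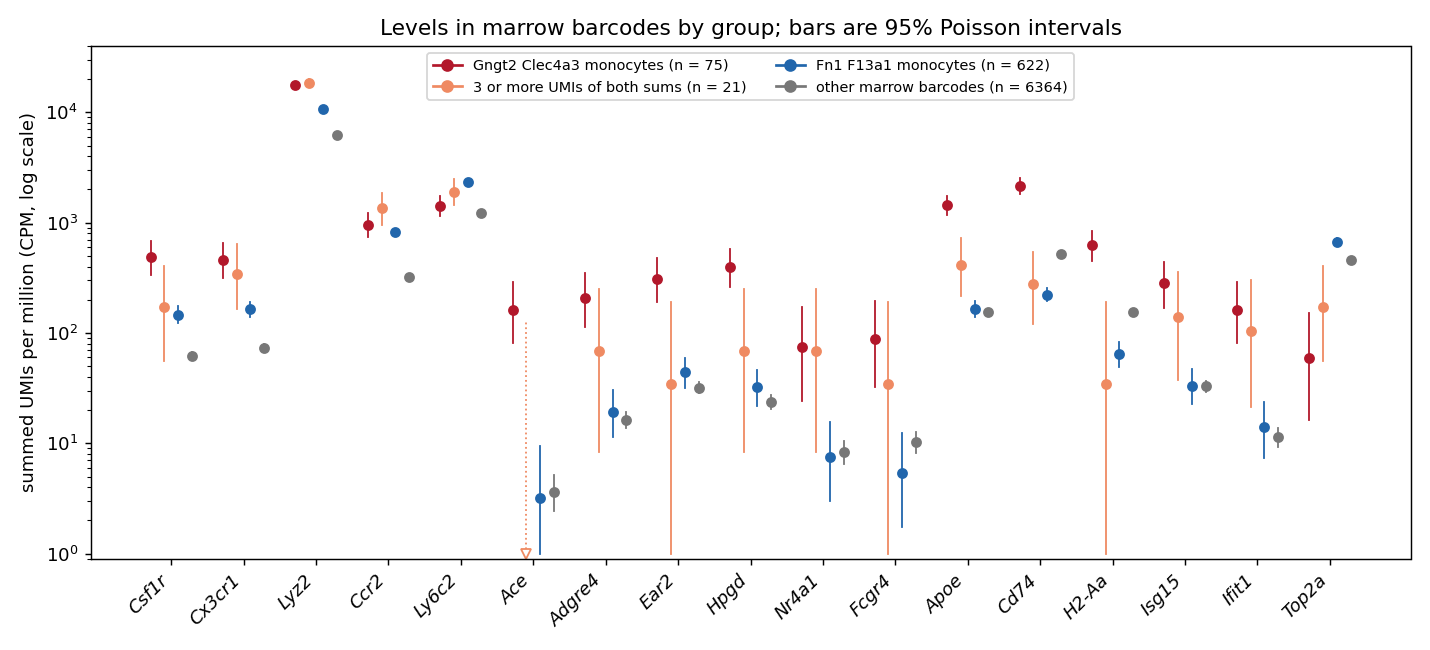
Summed CPM (log axis) of 17 genes in the 75 Gngt2 Clec4a3 monocytes (dark red), the 21 barcodes with 3 or more UMIs of both sums (orange), the 622 Fn1 F13a1 monocytes (blue) and the 6364 other marrow barcodes (grey). Bars are exact 95% Poisson intervals, and the open triangle marks 0 UMIs of Ace; the dark red points lie above the blue ones for Ace, Adgre4, Ear2, Hpgd, Apoe and Cd74 and below for Ly6c2 and Top2a.

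Genes of classical monocytes were mixed. Of 24 listed, 22 were measured, 3 were 2-fold or more higher and 4 at least 2-fold lower, with a median of -0.06. Ly6c2, the gene of the Ly6C antigen, had 1422 CPM (1151 to 1736) in the chosen barcodes against 2342 CPM (2245 to 2443), a log2 ratio of -0.72 (-1.03 to -0.43), and -0.16 (-0.54 to 0.19) under 1000 UMIs. Ccr2, which takes monocytes out of the marrow, had 962 CPM (743 to 1227) against 818 CPM (761 to 878), and 1094 CPM against 1389 CPM under 1000 UMIs (log2 -0.34, -0.81 to 0.10). Ms4a4c (1.39) and Ccl6 (1.26) were among the 3 higher genes. The 4 lower ones, Lyz1, Ctsg, Mpo and Prtn3, include 3 granule genes of progenitors. Ly6c2 was seen in 44 of the 75 barcodes, so the 75 are not uniformly without it.

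The Fn1 F13a1 side held progenitor and cycling RNA. Of 5 measured markers of granulocyte-monocyte progenitors 4 were at least 2-fold lower in the chosen barcodes: Elane, the neutrophil elastase gene, had 59.2 CPM (16.1 to 152) against 610 CPM (561 to 662), Prtn3 had 104 against 785 CPM, Mpo had 133 against 738 CPM and Ctsg had 74.0 against 229 CPM. Of 20 measured cell cycle genes 15 were at least 2-fold lower and 0 higher, with a median of -1.63. Top2a, the mitotic topoisomerase, had 4 UMIs and 59.2 CPM (16.1 to 152) against 665 CPM (613 to 719), a log2 ratio of -3.49 (-5.37 to -2.12). Birc5 had 1 UMI against 302, and the replication clamp gene Pcna 2 against 201. The histone gene Hist1h2ap had 296 CPM (181 to 457) against 2200 CPM (2105 to 2297).

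Part of these differences was smaller in shallow barcodes. Under 1000 UMIs Mpo (131 against 130 CPM) and Prtn3 (153 against 166 CPM) were level. Ms4a3, also a progenitor marker, was higher in the chosen barcodes there. It had 8 UMIs against 5, or 175 against 29.6 CPM (log2 2.57, 0.77 to 4.52). Ctsg turned to a log2 ratio of 1.403 on 5 UMIs against 7, with an interval (-0.60 to 3.28) that includes equal levels. Elane had 43.8 against 106 CPM, on 2 UMIs (log2 -1.28, -4.43 to 0.78, an interval that includes equal levels), and Top2a still had 43.8 against 189 CPM (log2 -2.11, -5.22 to -0.14) and Hist1h2ap 109 against 461 CPM (-2.07, -3.74 to -0.79). Of the 15 cell cycle genes, 12 were still lower there, 6 of them by 2-fold. Of all 713 lower genes, 485 were still lower and 241 (33.8%) were so by 2-fold, while 165 formed no ratio. Thinned to 500 UMIs, Top2a was seen in 3 of the 75 chosen barcodes against 144 of the 622 Fn1 F13a1 monocytes (5.33% and 43.7% before thinning). When Fn1 F13a1 monocytes with a UMI of Mpo, Elane, Prtn3 or Ctsg were left out, which kept 312 of them, 14 of the 15 cell cycle genes and 4 of the 7 nonclassical genes stayed at 2-fold. Over all genes, 544 of the 713 lower (76.3%) and 379 of the 573 higher (66.1%) did. The part of depth, cell cycle and progenitor RNA in the other differences was not tested beyond these values.

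**Figure D2:**
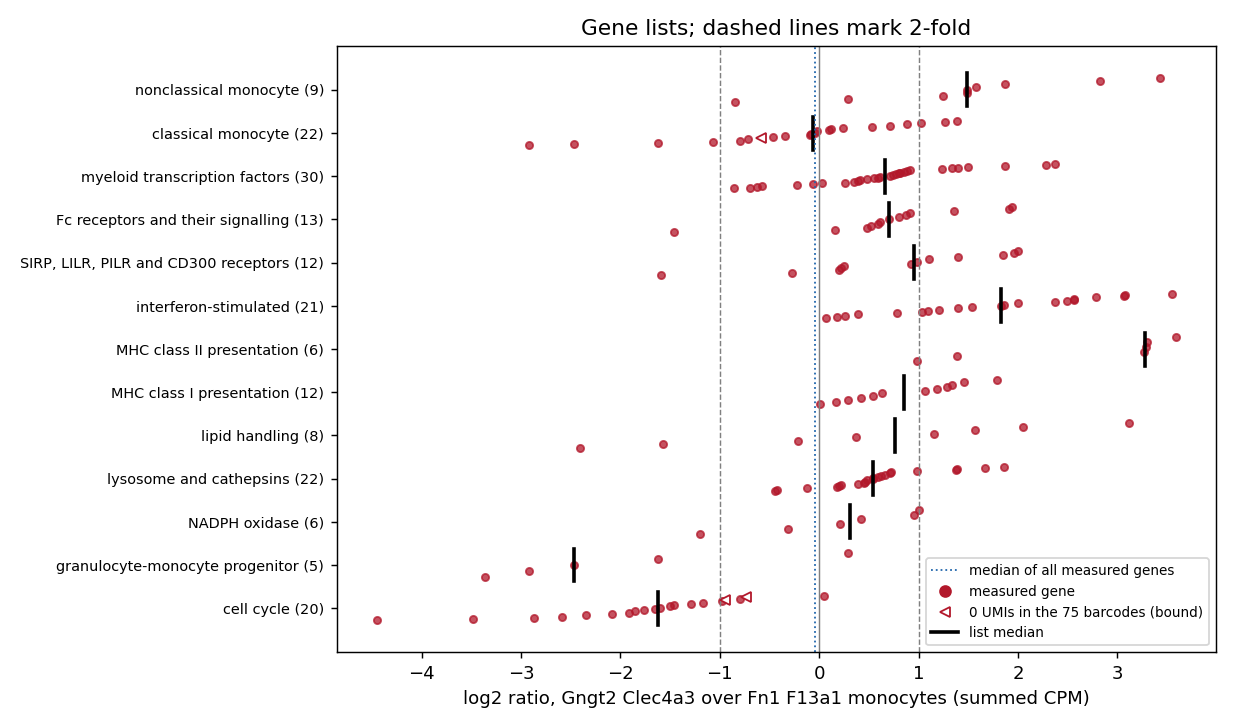
Log2 ratio of each measured gene, Gngt2 Clec4a3 over Fn1 F13a1 monocytes, for 13 lists with the number of measured genes in brackets. Points are genes, open triangles are genes with 0 UMIs in the 75 barcodes set at their bound, black bars are list medians and the dotted line is the median of all measured genes (-0.05); MHC class II and interferon lists lie to the right, cell cycle and progenitor lists to the left.

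Interferon-stimulated genes were higher as a list. Of 38 listed, 21 were measured, 16 were 2-fold or more higher and 0 were 2-fold lower, with a median of 1.83. Isg15, a ubiquitin-like modifier, had 19 UMIs in 12 barcodes and 281 CPM (169 to 439), against 33.3 CPM (22.6 to 47.2) in Fn1 F13a1 monocytes, a log2 ratio of 3.08 (2.17 to 3.95), and 2.33 (1.26 to 3.44) under 1000 UMIs. Ifit1, which binds foreign RNA ends, had 163 CPM (81.3 to 291) against 14.0 CPM (7.43 to 23.9), with log2 ratios of 3.54 and 2.04 (0.59 to 3.52). Rtp4 had 207 against 24.7 CPM (3.07), and Phf11b had 207 against 11.8 CPM (4.13), the largest ratio of the measured genes outside the rule at a mean of 50 CPM or more. The interferon regulatory factor Irf7 (2.37) was also past 2-fold. Under 1000 UMIs all 16 kept their direction and 10 (62.5%) stayed at 2-fold, against 524 and 312 (54.5%) of all 573 higher genes.

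Pydc4 and Ifi204 are themselves inducible by interferon and helped choose the cells, so this list is not independent of the rule. In the 39 barcodes with a UMI of Pydc4 or Ifi204, the genes Ifit1, Ifit3, Isg15 and Rtp4 (a set picked after their values were seen) had 45 of their 51 UMIs, or 1301 CPM (949 to 1740). The 36 barcodes without had 6 UMIs, or 182 CPM (66.9 to 397), and Fn1 F13a1 monocytes had 76.2 CPM (59.5 to 96.1). Among the 39, only a minority of barcodes held a UMI of these genes, with up to 6 in a single barcode. The whole list stood at 17082 CPM in the 39, 10323 CPM in the 36 and 6447 CPM in Fn1 F13a1 monocytes. With the 39 left out, 9 of the 16 genes (56.3%) stayed at 2-fold and 15 kept their direction. Of all 573 higher genes, 411 (71.7%) stayed at 2-fold and 526 kept their direction. Of 6 measured PYHIN genes of the list outside the rule, 2 were past 2-fold, Aim2 (1.67, 0.10 to 2.98), a sensor of cytosolic DNA, and Mnda (1.24). Gm4955 (chr1:173468485-173491041, minus strand), which lies between Aim2 and Pydc4 and is not on the list, had a log2 ratio of 3.03, and 2.30 (0.93 to 3.73) under 1000 UMIs.

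The promoters of these genes hold the letters of the interferon response element. RefSeq promoters (GRCm38.p6, 250 bases before to 50 after the start) were searched on both strands for GAAA, any 2 bases and GAAA, with overlapping matches counted. The element was in 16 of 27 listed interferon genes with a promoter in the table (59.3%), and in 7 of 11 of those at least 2-fold higher (63.6%), against 3.99% of 27025 genes. The promoters of Ifit1 (chr19:34640639-34640938, plus strand), Ifit3 (chr19:34583279-34583578, plus strand) and Isg15 (chr4:156200769-156201068, minus strand) are shown. These genes belong to the set whose summed level was higher in barcodes with Pydc4 or Ifi204 than in those without. Capitals mark the matches, which in Ifit1 and Ifit3 lie on the opposite strand.
Ifit1: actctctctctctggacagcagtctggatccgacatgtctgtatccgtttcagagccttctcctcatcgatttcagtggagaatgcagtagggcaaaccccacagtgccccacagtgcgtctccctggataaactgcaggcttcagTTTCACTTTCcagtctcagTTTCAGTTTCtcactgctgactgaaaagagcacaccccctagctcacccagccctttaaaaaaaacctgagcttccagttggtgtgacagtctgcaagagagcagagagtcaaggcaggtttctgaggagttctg
Ifit3: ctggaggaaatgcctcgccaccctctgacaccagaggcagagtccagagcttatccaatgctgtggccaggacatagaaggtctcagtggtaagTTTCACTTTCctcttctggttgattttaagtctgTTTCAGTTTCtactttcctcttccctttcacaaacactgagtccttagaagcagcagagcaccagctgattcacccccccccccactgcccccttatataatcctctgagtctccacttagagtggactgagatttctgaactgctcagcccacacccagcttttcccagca
Isg15: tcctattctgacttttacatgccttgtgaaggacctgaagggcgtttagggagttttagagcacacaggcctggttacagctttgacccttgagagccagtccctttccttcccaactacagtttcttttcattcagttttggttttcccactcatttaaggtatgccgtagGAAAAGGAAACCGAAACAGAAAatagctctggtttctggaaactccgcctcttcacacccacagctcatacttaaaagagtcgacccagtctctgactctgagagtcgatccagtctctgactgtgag

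Ifit1 and Ifit3 each held 2 matches, and Isg15 held 3 that overlap. In the nonclassical list the element was in 2 of 22 genes (9.09%). There the letters GAGGAAGT, which contain the GGAA core read by ETS factors such as PU.1, were in 7 of 22 genes (31.8%) against 3.69% of all genes, but in 1 of the 6 that were at least 2-fold higher. That gene is Adgre4 (chr17:55749734-55750033, plus strand), shown with its match in capitals on the opposite strand, after the start. A match is a run of letters and not a measured binding site.
Adgre4: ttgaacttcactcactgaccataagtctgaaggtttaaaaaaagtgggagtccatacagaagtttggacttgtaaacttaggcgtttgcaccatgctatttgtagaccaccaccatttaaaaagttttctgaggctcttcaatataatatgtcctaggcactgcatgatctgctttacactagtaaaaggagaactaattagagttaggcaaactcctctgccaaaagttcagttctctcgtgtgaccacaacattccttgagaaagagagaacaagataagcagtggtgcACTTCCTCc

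MHC class II genes had the highest list median, 3.28, with 5 of 6 measured genes of 13 listed at least 2-fold higher and 0 lower. Cd74, the invariant chain, had 146 UMIs in 25 barcodes and 2162 CPM (1825 to 2542) against 222 CPM (193 to 255) in Fn1 F13a1 monocytes. H2-Aa had 622 CPM (448 to 841) against 64.4 CPM (49.2 to 82.9), H2-Ab1 had 666 against 67.6 CPM, and H2-Eb1 had 296 against 24.7 CPM. Under 1000 UMIs Cd74 kept a log2 ratio of 2.42 (1.94 to 2.91).

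This excess lay in a minority. The 15 barcodes with 3 or more UMIs of Cd74, H2-Aa, H2-Ab1 and H2-Eb1 held 238 of the 253 UMIs of these genes, or 15126 CPM, against 290 CPM in the 60 others and 379 CPM in Fn1 F13a1 monocytes. Without those 15 and without barcodes with a complement C1q UMI (56 barcodes left, a choice made after the data were seen), 0 of the 5 class II genes stayed at 2-fold. This loss follows largely from the choice, since Cd74, H2-Aa, H2-Ab1 and H2-Eb1 picked the barcodes left out. The Fn1 F13a1 monocytes were not filtered in this way. Of the other lists, 7 of 7 nonclassical and 15 of 16 interferon genes stayed at 2-fold. So did 447 of all 573 higher genes (78.0%). The 15 had a monocyte list of 19956 CPM against 26989 CPM in the 60 others, and 8 of them held a UMI of Ace, Adgre4, Ear2, Treml4 or Hpgd, as did 27 of the 60. Of 10 conventional dendritic cell markers 4 had a UMI in the 75 barcodes (8 UMIs, in 5 barcodes, 118 CPM against 65.5 CPM), and Zbtb46, Xcr1, Clec9a, Itgae, Ccr7 and Htr7 were at 0. The part of other cells in the class II result was not tested further.

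Class I presentation genes were higher in part. Of 12 measured, 6 were 2-fold or more higher and 0 lower, with a median of 0.85. H2-K1 had 1125 CPM (887 to 1409) against 409 CPM (369 to 452), with log2 ratios of 1.46 and, under 1000 UMIs, 1.30 (0.77 to 1.83). H2-D1 had 2310 CPM (1962 to 2702) against 1019 CPM (955 to 1086), with 1.18 and 0.83 (0.49 to 1.16). The peptide transporter gene Tap1 (1.79) and H2-T23 (1.33) were past 2-fold as well.

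**Figure D3:**
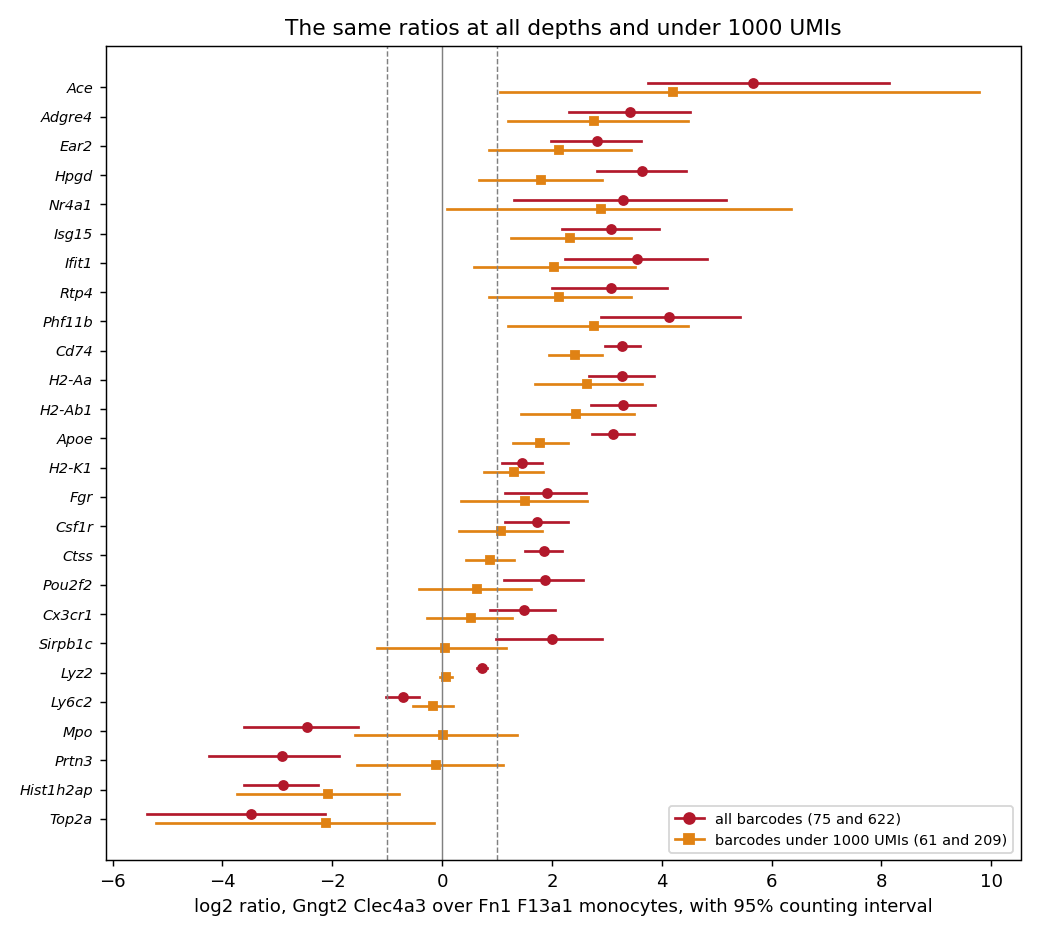
Log2 ratio of 26 genes, Gngt2 Clec4a3 over Fn1 F13a1 monocytes, with 95% counting intervals, over all barcodes (dark red circles, 75 and 622) and over barcodes under 1000 UMIs (orange squares, 61 and 209). Adgre4, Isg15 and Cd74 stay above 2-fold at both depths, while Sirpb1c, Lyz2, Mpo and Prtn3 lie at about 0 in the shallow barcodes.

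Among lipid genes, 4 of 8 measured were at least 2-fold higher and 2 lower. Apoe, the lipid carrier apolipoprotein, had 97 UMIs in 35 of the 75 barcodes and 1436 CPM (1165 to 1752), against 165 CPM (140 to 194) in Fn1 F13a1 monocytes. Its log2 ratio was 3.12 (2.74 to 3.49), and 1.79 (1.29 to 2.28) under 1000 UMIs. Its receptor Lrp1 had 267 against 64.4 CPM (2.05), but 0.63 at shallow depth, and the scavenger receptor Scarb1 had 133 against 45.1 CPM (1.56). Fabp5 (-2.40) and the macrophage scavenger receptor Msr1 (-1.57), with 2 and 1 UMIs in the 75 barcodes, were the lower ones. Macrophage markers moved with these genes: 9 of 12 had a UMI, with 577 CPM against 104 CPM, all 3 measured ones (Vcam1, Hmox1 and Adgre1) were past 2-fold, 19 of the 75 barcodes held any, 1 barcode held 16 of the 39 UMIs, and Mertk, Cd5l and Spic were at 0. Vcam1 had 5 UMIs in 2 barcodes, and its log2 ratio of 2.02 turned to -0.085 at a 10% S100 limit. In the 56 barcodes without C1q or 3 class II UMIs Apoe stood at 1361 CPM. The part of macrophage RNA in the other genes was not tested.

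Lysosomal and signalling lists held fewer such genes, to be read beside the 11.2% higher and 13.9% lower of all measured genes. Of 22 measured lysosomal genes 4 were 2-fold or more higher and 0 lower (median 0.54): cathepsin S, Ctss, had 1407 CPM (1138 to 1720) against 389 CPM (350 to 431), and Ctsa (1.67), Ctsb (1.38) and Cd68 (1.37) were the others. Under 1000 UMIs Ctsa stayed past 2-fold (1.53), while Ctss (0.88), Ctsb (0.45) and Cd68 (0.77) did not. Of 13 measured Fc receptor genes and partners 3 were higher and 1 lower, among them the kinase Fgr (1.91, and 1.50 under 1000 UMIs) and the inhibitory receptor Fcgr2b (1.36 and 1.57, but -0.66 at 1000 UMIs or more). Of 12 measured paired receptors 5 were higher and 1 lower, with Sirpb1b (1.96) and the inhibitory Cd300a (1.85) beside Sirpb1c; under 1000 UMIs Sirpb1b had 0.61 and Cd300a 0.83. Of 8 measured C-type lectins and TREM receptors outside the rule 1 was higher, Clec4a1 (1.80, and 0.71 under 1000 UMIs), a relative of Clec4a3, with a list median of -0.21, while Clec4a2 was not (-0.37). Among 15 measured G protein genes outside the rule only Rgs2 (1.15, and 0.75 under 1000 UMIs) was 2-fold higher, and Gnaq (-1.38) and Rgs18 (-2.26) were lower.

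Regulators and receptors of cytokines were higher in part. Of 30 measured myeloid transcription factors 7 were 2-fold or more higher and 0 lower (median 0.67), among them Irf7, Tcf4 (2.28), Pou2f2, Klf2 (1.50), Bach1 (1.34) and Rel (1.24). Klf2, a factor linked to leukocyte quiescence, was level under 1000 UMIs (0.08, -1.26 to 1.25). Tcf4 and Bst2 are also plasmacytoid dendritic cell markers; of 10 such markers 5 had a UMI, with 785 CPM against 310 CPM, and Klk1, Runx2, Cd209d, Klra17 and Pacsin1 were at 0. Of 18 measured cytokines and receptors 8 were higher and 0 lower, among them the interferon receptor chains Ifnar1 (1.74, but -0.036 without the 39 barcodes with Pydc4 or Ifi204) and Ifngr1 (1.62) and the TNF receptor Tnfrsf1b (1.57). Of 16 measured migration genes 4 were higher, the integrin chains Itgal and Itgb2 (1.38), Cx3cr1 and Cd9, and 1 was lower, the marrow retention receptor Cxcr4, with 4 UMIs and 59.2 CPM against 291 CPM (-2.30, -4.18 to -0.92; -0.36 under 1000 UMIs).

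Other lists were mixed. Of 9 measured immediate early genes 4 were higher and 0 lower, of 9 pattern recognition genes 3 and 1, of 8 survival genes 2 and 1, of 6 oxidase genes 1 and 1, and of 3 complement genes 1 and 0. Neutrophil markers stood at 7093 CPM against 6307 CPM in Fn1 F13a1 monocytes, with 1 of 12 measured past 2-fold, and against 37826 CPM in the other barcodes. Gm4955 (3.03), Dusp6 (3.09), a phosphatase that turns off ERK, and Tmem106a (2.89) complete the 15 highest genes at a mean of 50 CPM, with 13, 13 and 7 UMIs.

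The comparison with all other marrow barcodes sets the chosen cells against a mixture of lineages. Of 7184 measured genes 27.9% were higher by 2-fold or more and 8.55% lower, with a median of 0.36 (16.3% and 5.88% of the 646 genes at a mean of 200 CPM), so that a count of higher genes says little here. Ace (5.49), Ifit3 (4.67), Phf11d (4.40), Tppp3 (4.30) and Hpgd (4.07) had the highest ratios at a mean of 50 CPM, and Cd24a (-4.64), Elane (-4.27) and Gm10282 (-4.24) the lowest, with 1, 4 and 1 UMIs in the 75 barcodes. Of the 26 listed nonclassical genes 21 were measured here, 18 were 2-fold or more higher and 1 lower.

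Just inside and just outside the limit on the rule sum several levels were graded. Barcodes that met every other condition were binned by the rule sum as 0, 1, 2, 3, 4 and 5 or more, with 2693, 473, 126, 48, 12 and 15 barcodes. Ace, Adgre4, Ear2, Treml4 and Hpgd (a set picked after their values were seen, with 76 UMIs in the 75 barcodes, 27 of them Hpgd) together had 49.1, 196, 315, 881, 1212 and 1794 CPM in that order. Csf1r and Cx3cr1 together had 119, 322, 477, 951, 808 and 1035 CPM, and the cell cycle list 10102, 8858, 6681, 5610, 2423 and 2070 CPM. MHC class II genes followed no such order, with 946, 1940, 4634, 1878, 11309 and 4139 CPM. At a sum of 4 most of their UMIs lay in 1 barcode with 55 and 1 with 53. On the other limit, the barcodes with an Fn1 and F13a1 sum of 0, 1 and 2 numbered 43, 15 and 17, with 1450, 634 and 765 CPM of the Ace to Hpgd set. The 5 barcodes with a sum of 3, just outside, had 195 CPM, on very few UMIs, so a step across this limit was not resolved. These values are a description, since the bins are made from the genes of the rule.

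**Figure D4:**
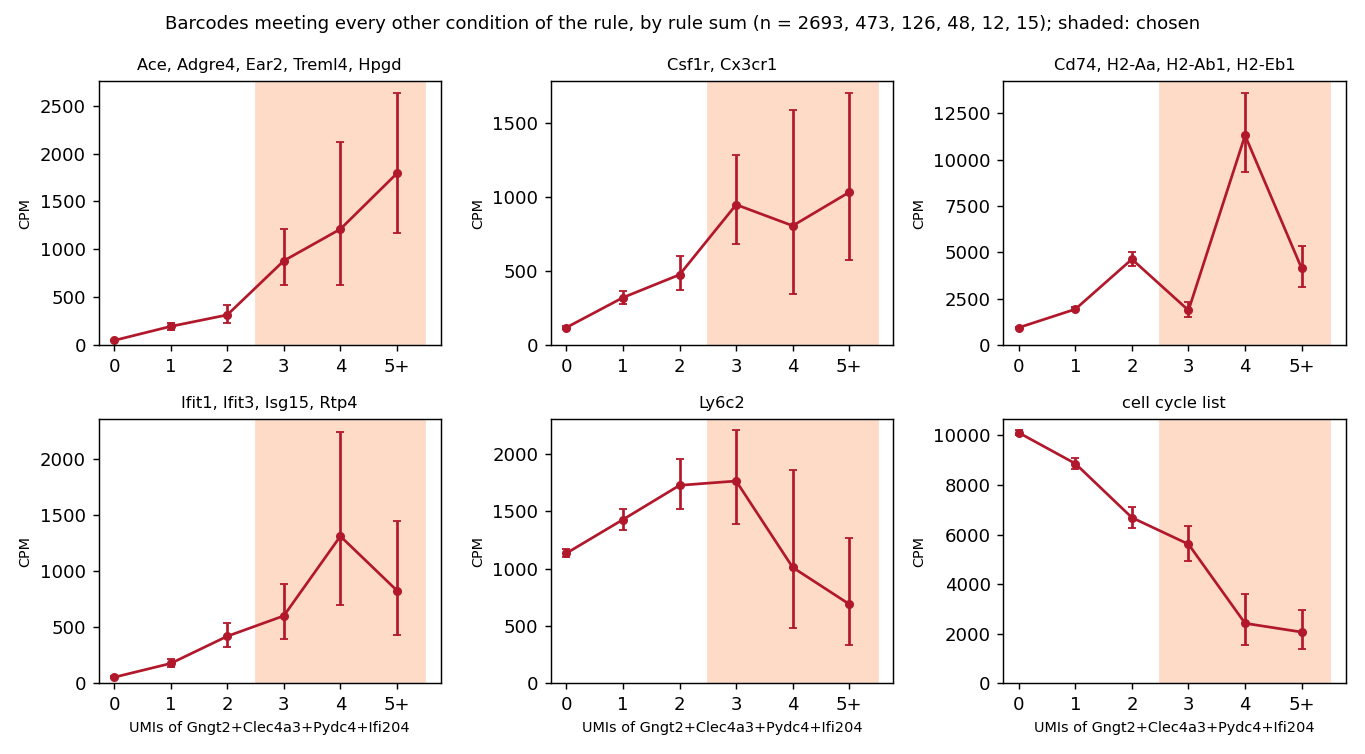
Summed CPM with 95% Poisson intervals of 6 gene sets in marrow barcodes that met every other condition of the rule, by the UMI sum of Gngt2, Clec4a3, Pydc4 and Ifi204 (0 to 5 or more; 2693 to 15 barcodes). Shaded bins are the 75 chosen barcodes. The set of Ace, Adgre4, Ear2, Treml4 and Hpgd climbs to 1794 CPM and the cell cycle list falls to 2070 CPM. The class II genes are highest at a sum of 4, mostly from 1 barcode with 55 and 1 with 53 UMIs.

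The 75 barcodes varied among themselves. The 31 without a Ly6c2 UMI carried 10 of the 11 Ace UMIs and had 1821 CPM (1364 to 2381) of the Ace to Hpgd set, against 599 CPM (379 to 898) in the 44 with Ly6c2. Apoe stood at 2164 CPM in the 31 and 885 CPM in the 44, and the 4 interferon genes at 412 CPM (213 to 720) and 1015 CPM (722 to 1388). Barcodes with a Pydc4 or Ifi204 UMI had less Apoe, 867 CPM against 2034 CPM in those without, and a nonclassical list of 2254 against 3431 CPM. Median depths of these subsets were close, 777 against 797.5 UMIs with and without Pydc4 or Ifi204, and 759 against 781.5 UMIs without and with Ly6c2. The splits were chosen after the values were seen, and none was tested.

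**Figure D5:**
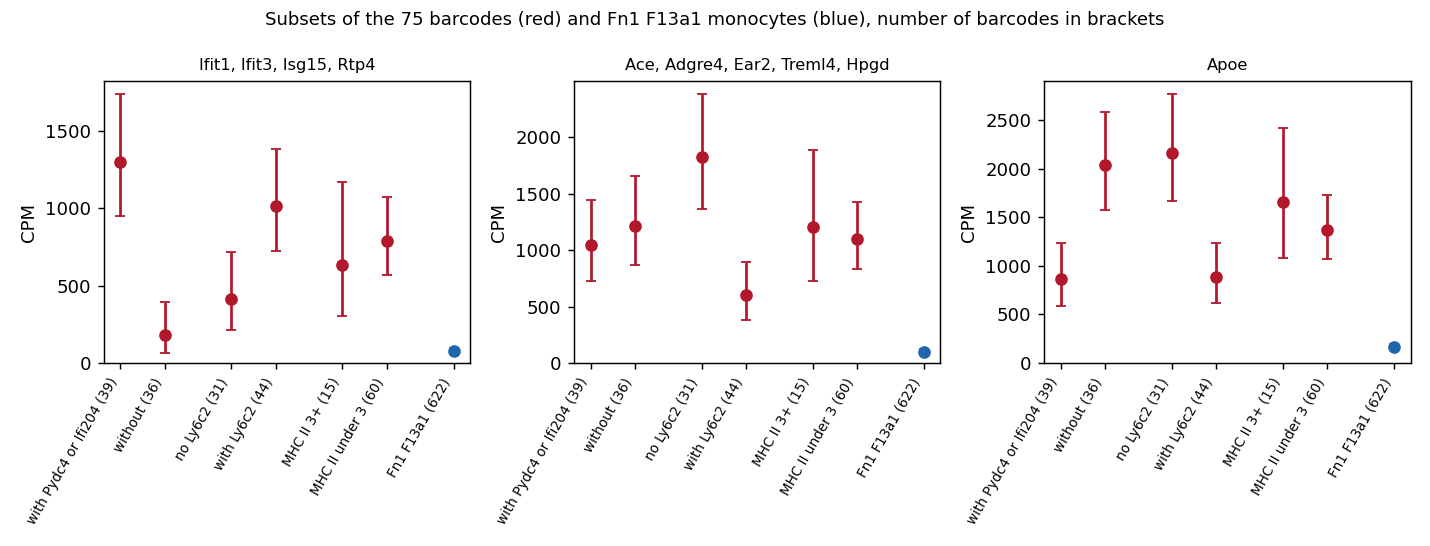
Summed CPM with 95% Poisson intervals of 3 gene sets in subsets of the 75 chosen barcodes (red, number of barcodes in brackets) and in the 622 Fn1 F13a1 monocytes (blue). Ifit1, Ifit3, Isg15 and Rtp4 stand at 1301 CPM with and 182 CPM without a Pydc4 or Ifi204 UMI, and the set of Ace, Adgre4, Ear2, Treml4 and Hpgd at 1821 CPM without and 599 CPM with Ly6c2.

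The 21 barcodes with 3 or more UMIs of both sums lay between the groups in several genes. Apoe had 415 CPM, against 1436 CPM in the 75 and 165 CPM in Fn1 F13a1 monocytes, and the cell cycle list had 6056 CPM, against 4383 and 12805 CPM. Ly6c2 had 1903 CPM, against 1422 and 2342 CPM, while Ccr2 had 1350 CPM, above the 962 and 818 CPM. Ace had 0 UMIs there, which allows up to 104 CPM, so its level in these 21 barcodes was not resolved.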

How the data were processed

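Single-cell RNA libraries were made with 10x Genomics v2 chemistry, per the labels' protocols. The deposited matrices hold raw UMI counts for 27998 genes, made with Cell Ranger 2.1 and Seurat 2 on mm10 per the submitters' processing notes; strand handling is not given in the sources used here. Of 6458 marrow barcodes, 19 at or above 10% mitochondrial UMIs were removed. Counts were summed per group and scaled to CPM, with exact Poisson intervals. Each log2 ratio carries an exact binomial (Clopper-Pearson) interval for a pair of counts at 95%, covering counting error only. A 0 was set at a floor of 3 counts per group, and no ratio was formed where that floor lay above the other side (385 of 5520 genes with 20 UMIs). Measured genes are those whose UMIs over both sides reach 20; 2-fold was the size counted. Groups come from the labels and the stated rule; the members, gene lists and alternatives were chosen with earlier results of these data known.

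Named genes were the 15 highest and 15 lowest ratios at a mean of 50 CPM against Fn1 F13a1 monocytes, the 10 highest and 10 lowest against other barcodes, up to 5 measured members of each list, and a fixed set with Csf1r, Cx3cr1, Nr4a1, Ly6c2, Ccr2, Ace, Treml4, Spn, Fcgr4 and Cd36 (1 further gene is not reported here); mitochondrial, ribosomal, globin, immunoglobulin and rule genes were left out of the ranks. Genes named outside this rule, such as H2-T23 or Klra17, complete a list count. Barcodes were thinned at random to 1000 UMIs, which left 14 of the chosen cells, so shares thinned to 500 UMIs are given, a choice made after the data were seen. Doublets were called with Scrublet and kept. Clusters came from scanpy 1.11.5 and leidenalg 0.10.2 (Python 3.11.15, numpy 2.4.6, scipy 1.17.1, pandas 2.3.3) at resolutions 1 and 2. Scaling alternatives used edgeR 4.0.16 and DESeq2 1.42.0 (R 4.3.3). Ratio code was tested on simulated data. Positions are from GENCODE M21 and promoters from RefSeq; of the rule genes 1 of 4 had a promoter in that table.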

Additional observations from a re-analysis of the deposited data

How the results depend on the processing

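With 1 library there is no replicate to leave out. No paired analysis was possible because the library stands alone and no result comes from a test. Counts of genes at least 2-fold different varied with the choices below, the cause of each change was not tested, and precision is limited by the 67534 UMIs of the 75 barcodes. "Higher" and "lower" mean at least 2-fold against Fn1 F13a1 monocytes unless other barcodes are named. A rule sum of 2 gave 201 barcodes, 310 genes higher and 1332 higher than other barcodes. A sum of 4 gave 27 barcodes, 364 lower, 286 lower than other barcodes, 11 transcription factors higher and 9 cell cycle genes lower. Without Gngt2 in the sum there were 29 barcodes, 359 lower and 299 lower than others. Without Clec4a3 there were 34, 393, 347 and 11 transcription factors. With at least 1000 UMIs there were 14 barcodes, 260 lower, 201 lower than others, 6 interferon, 3 class I and 2 lipid genes higher and 9 cell cycle genes lower. TMM factors gave 339 higher, 1120 lower, 1178 and 1240 against others, and 5 cytokine genes; DESeq2 size factors gave 366 higher, 1247 and 1161 against others, and 5. With no UMI minimum, 1727 genes, 17 nonclassical, 27 interferon, 9 class II, 13 transcription factor, 14 cytokine and 8 lipid genes were higher. At 50 UMIs, 184 were higher and 401 lower, with 6 interferon and 3 class II genes higher.

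The following were chosen after the data were seen. Without the barcodes with class II or C1q UMIs, 0 class II, 11 transcription factor and 5 cytokine genes were higher. That class II count follows largely from the choice. Without those with Pydc4 or Ifi204, 36 barcodes gave 404 lower, 322 lower than others, and 6 interferon and 3 class I genes higher. Under 1000 UMIs, where 1608 genes were measured, 82 were higher and 155 lower, with 1 nonclassical, 2 interferon, 3 class II, 3 class I, 3 transcription factor, 3 cytokine and 2 lipid genes higher and 6 cell cycle genes lower; the report follows the genes of the main count at that depth without the UMI minimum. Without Fn1 F13a1 monocytes that held granule gene UMIs, 180 were higher and 364 lower, with 4 nonclassical, 10 interferon, 2 class I and 4 cytokine genes higher. At a mean of 200 CPM, 53 were higher, 42 lower, 105 and 38 against others, with 3 nonclassical, 4 interferon, 3 class II, 3 class I, 1 transcription factor, 3 cytokine and 1 lipid gene higher and 6 cell cycle genes lower.

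Over 157 named genes, 3125 values stayed within counting error, 211 moved and 15 that were 2-fold or more turned sign. The turned log2 ratios were Vcam1 (-0.085) at a 10% S100 limit, Junb (-0.58), Naip5 (0.15) and H2-DMb1 (-0.10) without Gngt2, Fcgr2b (-0.66), Btk (0.081), Hbb-bs (-0.55) and Bad (0.038) with at least 1000 UMIs, Cd300lb (-0.57) and Ifnar1 (-0.036) without Pydc4 or Ifi204, and Cd209a (-0.57), Jund (-0.28), Mcpt8 (0.47), Ctsg (1.403) and Mpo (0.014) under 1000 UMIs.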
